A study of Mus musculus with 3 samples.

Results

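*Lin9* was followed together with the other genes of the MuvB core, B-Myb, E2F4 and the pocket proteins in mast cell progenitors (MCps). A probe was taken when its gene name on the array, with case ignored, was *Lin9*, *Lin37*, *Lin52*, *Lin54*, *Rbbp4*, *Mybl2*, *E2f4*, *Rb1*, *Rbl1* or *Rbl2*. Of these 10 genes, 7 were found by name, with 14 of the 41174 probes and among 27962 gene names on the array. The remaining 3 genes are on the array only under older names, *Lin37* as 1810054G18Rik, *Lin52* as 5830457H20Rik and *Lin54* as AI461788. Their 5 probes are given beside the others, and are counted apart. All 14 probes, and these 5, had a value on every array.

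The cells came from marrow mononuclear cells of 3 WT and 3 *p85α−/−* mice. Culture of both genotypes lasted 7 days with IL-3 at 10 ng/mL, cells positive for KIT together with the IgE receptor were sorted, and SCF, which binds KIT, was then present at 100 ng/mL over 48 hours. Every culture thus had IL-3 before the sort and SCF after it. *p85α−/−* cells lack p85α, the regulatory subunit of class IA PI3K encoded by *Pik3r1*. Fewer than 10000 cells were at hand per sample, and the cDNA was amplified by a global PCR before labeling. Each of 3 Agilent arrays held 1 WT culture labeled with Cy3 and 1 *p85α−/−* culture labeled with Cy5. The dyes were the same on all 3, so dye and genotype cannot be told apart in any value below. The number of arrays limits the precision of every ratio.

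LIN9, LIN37, LIN52, LIN54 and RBBP4 form MuvB, a core that binds promoters of cell cycle genes and changes partners as cells leave quiescence. With E2F4, a DP protein and the pocket protein p130 or p107 it forms the DREAM complex, which represses these promoters in resting cells. With B-Myb, and later FOXM1, the same core activates genes of G2 and mitosis, and mast cells need SCF or IL-3 to enter this cycle.

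Levels are given as normalized log2 intensities, in which the 6 channels share 1 distribution, and a log2 ratio is the level of *p85α−/−* minus that of WT on the same array. Before normalization, the median spot brightness was 76.1, 71.5 and 141 in the WT channels of replicates 1, 2 and 3, and 211, 517 and 207 in the *p85α−/−* channels. Spots well above background made up 72.1%, 69.4% and 85.3% in WT and 77.6%, 93.8% and 77.3% in *p85α−/−*. The *p85α−/−* culture of replicate 2 was thus the brightest channel. Across the 41157 tested probes, which are not independent, its levels had a Pearson r of 0.798, 0.777 and 0.826 with WT replicates 1, 2 and 3, and of 0.766 and 0.781 with *p85α−/−* replicates 1 and 3. Between WT replicates r was no higher, 0.747 (1 and 2), 0.774 (1 and 3) and 0.761 (2 and 3). Between *p85α−/−* replicates 1 and 3 it was 0.773.

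*Pik3r1*, the targeted gene, had 4 probes. At the brightest, WT levels were 9.25, 8.89 and 8.36 on replicates 1, 2 and 3 and *p85α−/−* levels were 10.74, 8.86 and 8.69. At the next, WT levels were 9.79, 8.82 and 8.99 and *p85α−/−* levels were 8.75, 8.51 and 8.62. The groups overlapped at the first and were apart, with *p85α−/−* lower, at the second. Of the others, NM_001024955 was higher in *p85α−/−* on every array (mean log2 ratio 0.32) and the last (NM_011085) had −0.04. Where the deletion lies relative to these probes is not given in the sources used here, so they do not check the labels, and each direction is that of the cultures labeled *p85α−/−*.

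Mast cell markers were present in every culture. All 13 genes of the list had a probe, 12 were well above background in all WT channels and 13 in all *p85α−/−* channels, and the brightest probe was that of *Cma1*. Their summed level was 16.14, 15.28 and 15.58 in WT and 17.48, 17.18 and 16.78 in *p85α−/−*, so the groups did not overlap. Mean log2 ratios lay above 0 for 12 of 13, with a median of 1.47. By limma, 4 genes, *Cma1*, *Fcer1g*, *Il1rl1* and *Kit*, passed 1.5-fold with an unadjusted p under 0.05. Of all tested probes on the array, 4.44% passed. Limma's adjusted p was 0.784 for *Kit* and 0.908 for the others. The other *Cma1* probe had ratios of −0.01, 4.32 and −0.40 on arrays 1, 2 and 3, with overlapping groups, and did not pass. The neutrophil list, whose brightest probe was that of *Mpo*, had summed levels of 13.30, 14.22 and 13.13 in WT and 16.09, 11.63 and 17.80 in *p85α−/−*. It was high in *p85α−/−* replicates 1 and 3 and lowest in *p85α−/−* replicate 2. Of its 8 genes 5 were above 0, with a median of 1.51, and *S100a8* and *S100a9* were past both criteria. For both, limma's adjusted p was 0.908. Without replicate 2, the neutrophil median was 2.49 with 5 genes passed, and the mast cell median 0.89 with 3 passed. In that setting 3165 of 41159 probes on the array passed. In the macrophage (8 genes), basophil (3) and erythroid (4 of 5 with a probe) lists no gene passed, with medians of −0.04, 0.89 and 0.17. Their summed levels ran from 12.44 to 13.11, from 10.50 to 13.18 and from 10.39 to 13.01. The brightest probes of these lists were those of *Marco*, *Mcpt8* and *Hba-a1*, and no gene of these lists was below background in all 6 channels. Fewer cells of a type and less RNA per cell cannot be told apart in these cultures, and the part of the markers in the values of the MuvB genes was not tested.

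Between genotypes, no MuvB, B-Myb, E2F4 or pocket protein probe passed the criteria for a difference, but 1 or 2 of the 14 did under some alternatives. By limma's test, 0 of the 14 probes were past 1.5-fold and an unadjusted p under 0.05, where 4.44% of all tested probes were, 2.78% as higher and 1.66% as lower. Whether 0 of 14 differs from this share was not tested. An adjusted p under 0.05 was reached by 0 of 14 and by 0% of all probes, and an unadjusted p under 0.05 by 0 of 14 and by 1829 of 41157. By the methods' t-test the adjusted count was 0 as well, and 1755 (unpaired) and 1501 (paired) of all probes had an unadjusted p under 0.05. Within the 14, the lowest unadjusted p from limma was 0.112 and the adjusted p ran from 0.908 to 0.999. The mean log2 ratio was above 0 at 9 of 14 probes, against 44.8% of all probes, with a median of 0.21 against −0.05. The ratio had the same sign on every array at 3 of 14, against 25.8%, and the WT and *p85α−/−* levels did not overlap at 1 of 14, against 10.5%. Counting the 5 probes under older names, 0 of 19 passed, 12 were above 0, 3 had 1 sign and 1 did not overlap. Without replicate 2, 47.5% of the probes that passed over the array were higher, against 62.6% with all 3 replicates.

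As a group, the 14 probes spread more widely between arrays than most probes did. The SD of the log2 ratio had a median of 1.497 over the 14 probes, against 0.67 over all tested probes, and ran from 0.08 to 3.41. With the older names counted, the median over 19 probes was 1.09. Of the 14, those below the median of all probes were the RefSeq transcript's probe of *Lin9* (0.47) and a dim *Rb1* probe (0.08). Under older names, so were *Lin37* (0.13), both *Lin54* probes (0.37 and 0.30) and the second *Lin52* probe (0.34). The mean was smaller than the SD at 13 of 14, which also held at 32798 of 41157 tested probes. The exception was the dim *Rb1* probe, whose ratios were small. With 3 arrays, the smallest 2-sided p of an exact test that flips signs is 0.25.

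**Figure D1:**
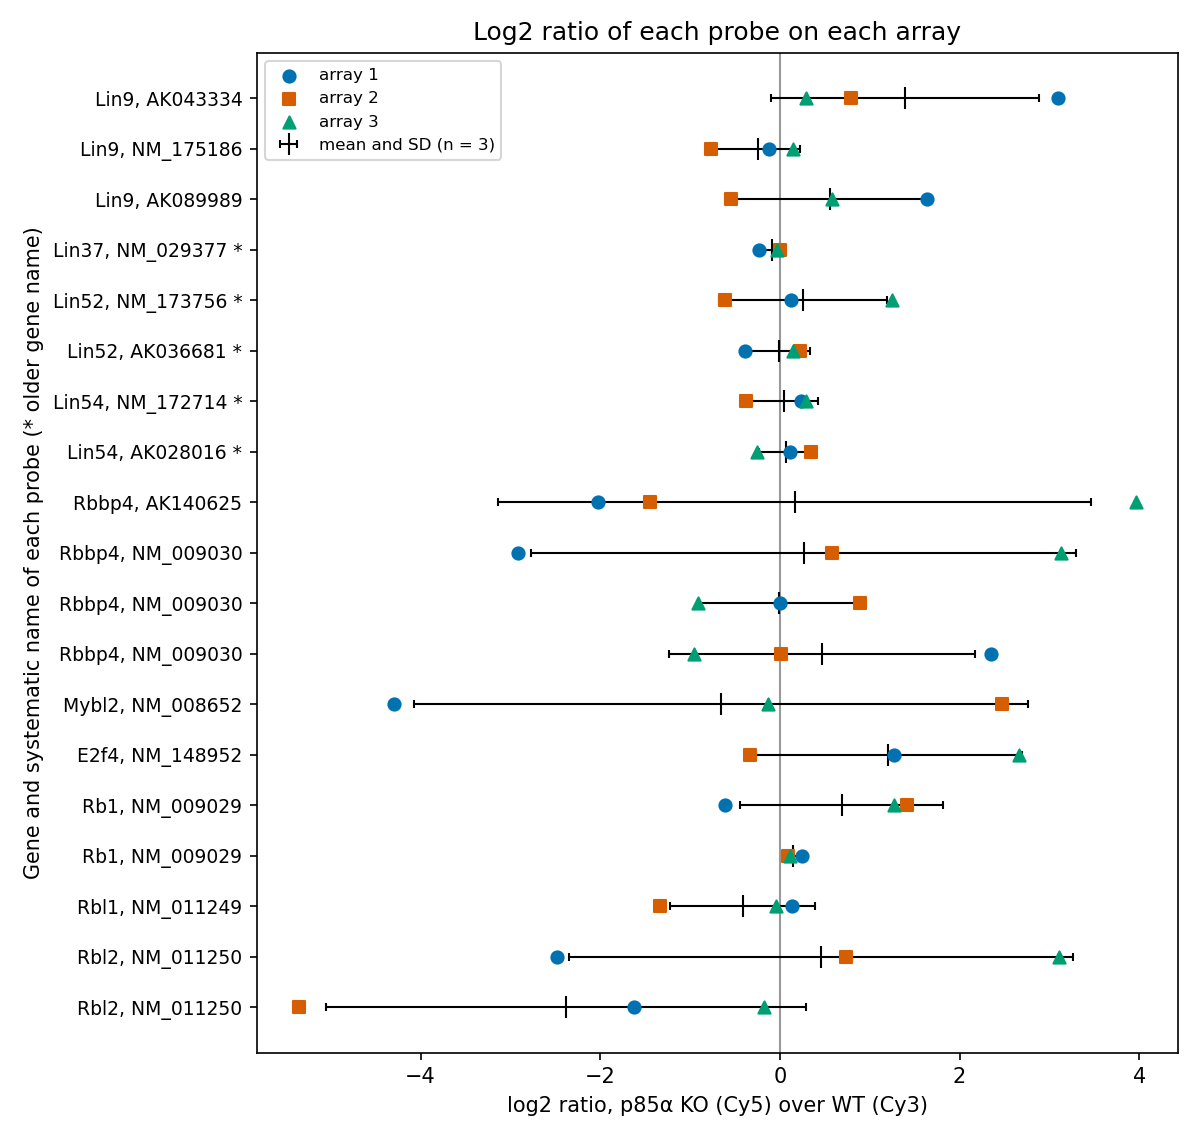
Log2 ratio of *p85α−/−* (Cy5) over WT (Cy3) on the x axis for every probe of the 10 genes on the y axis, with 1 point per array and the mean ± SD (n = 3) as a bar. The points lie on both sides of 0 for most probes, and the lowest is that of an *Rbl2* probe on array 2, at −5.36.

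LIN9 is the subunit of MuvB that holds its partners together and is needed for B-Myb to join. Its brightest probe (AK043334, chromosome 1, 180668104 to 180668163; the array's annotation names no genome build) had levels of 7.04, 6.85 and 7.22 in WT replicates 1, 2 and 3 and of 10.13, 7.64 and 7.51 in *p85α−/−*. All *p85α−/−* levels lay above all WT levels, but 1 culture, *p85α−/−* replicate 1, stood far above the rest, and the others lay within 0.79 of the WT culture on their array. The WT levels spanned 0.37 and the *p85α−/−* levels 2.62. WT was well above background on 2 of 3 arrays, with a spot brightness of 48.6, 38.7 and 80.1 over a background of 38.0, 32.0 and 33.0, so that the WT side of this ratio rests on dim spots. The log2 ratio was 1.39 ± 1.49 (SD, n = 3), with, from limma, a 95% interval of −0.53 to 3.31 and an adjusted p of 0.908. This interval, like those below, uses a variance moderated over all probes, so it does not follow from the SD beside it. Without replicate 1 it was 0.54. With the scanner's processed intensities it was 2.74, past both criteria, and with the scanner's log ratio it was 3.00 and did not pass. The deposited table gave 3.68, past both criteria. Most of that table's values for replicates 2 and 3 are not the scanner's ratio of the probe.

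The probe of the RefSeq transcript of *Lin9* (NM_175186, chromosome 1, 180647457 to 180648821) gave another picture. Its levels were 7.89, 7.97 and 7.57 in WT and 7.77, 7.21 and 7.72 in *p85α−/−*. The groups overlapped, every channel was well above background, and the highest level was that of WT replicate 2. The ratio of −0.25 ± 0.47 (SD, n = 3) had a 95% interval of −1.11 to 0.61. At the third probe (AK089989, chromosome 1, 180670147 to 180670206), which lies 2043 bases from the brightest, WT levels were 6.94, 7.40 and 7.07 and *p85α−/−* levels 8.58, 6.86 and 7.65. Again *p85α−/−* replicate 1 was the highest culture, while *p85α−/−* replicate 2 was the lowest of all 6. The mean ratio was 0.56 ± 1.09. On array 1 the brightest probe and the RefSeq transcript's probe differed by 3.21 in log2 ratio, and on array 3 by 0.15.

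LIN37, a subunit that repression by DREAM needs, was measured at 1 probe (NM_029377, chromosome 7, 27496787 to 27496925). Its levels were 9.16, 9.14 and 9.24 in WT and 8.92, 9.15 and 9.20 in *p85α−/−*. These were nearly level in all 6 cultures, with *p85α−/−* replicate 1 the lowest. The ratio was −0.09 ± 0.13 (SD, n = 3). Its moderated 95% interval from limma, −0.76 to 0.58, is wider than this SD alone would give and reaches past 1.5-fold on the lower side only.

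LIN52, whose phosphorylation by DYRK1A lets MuvB bind pocket proteins, had 2 probes. At the first (NM_173756, chromosome 12, 82531205 to 82531264) WT levels were 7.15, 7.39 and 6.92 and *p85α−/−* levels 7.28, 6.78 and 8.17. *p85α−/−* replicates 2 and 3 were the lowest and highest of all cultures, and the mean ratio was 0.26 ± 0.93 (SD, n = 3). The second (AK036681, 82469559 to 82469618) stood well above background in 0 WT channels and 1 *p85α−/−* channel, with levels from 6.23 to 6.95. No fold is given for it.

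LIN54 is the DNA-binding subunit, which reads the CHR sequence in promoters of late cell cycle genes. At its brighter probe (NM_172714, chromosome 5, 99657084 to 99657143) WT levels were 6.80, 7.76 and 6.71 and *p85α−/−* levels 7.04, 7.37 and 7.00. WT replicate 2 was the highest culture and the other WT cultures were the lowest, so that *p85α−/−* lay inside the WT range. The ratio was 0.05 ± 0.37 (SD, n = 3). Its other probe (AK028016, 99699625 to 99699684) was well above background on 1 array per genotype, and its ratio was 0.07 ± 0.30.

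RBBP4 is a histone-binding protein that MuvB shares with several chromatin complexes, and its 4 probes on chromosome 4 went different ways. The brightest (AK140625, 128754253 to 128754312) had levels of 13.73, 11.57 and 8.11 in WT and 11.70, 10.12 and 12.07 in *p85α−/−*. WT replicate 1 was the highest and WT replicate 3 the lowest of the 6, a span of 5.62 within 1 genotype that encloses every *p85α−/−* culture. Its ratio was 0.16 ± 3.30 (SD, n = 3). Without replicate 3 it was −1.73, past both criteria, and without replicate 1 or 2 it was 1.26 or 0.97. The next (NM_009030, 128754337 to 128754396), placed 84 bases away, had 13.23, 7.83 and 8.10 in WT and 10.31, 8.41 and 11.23 in *p85α−/−*. WT replicate 1 was the highest here too, but the lowest was WT replicate 2, which ranked above WT replicate 3 at the first of these neighbours. The annotation lists the coordinates of the first in ascending order and those of the other 3 *Rbbp4* probes in descending order. Which strand it reads was not tested, so its values may not be those of *Rbbp4* mRNA.

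Of the other *Rbbp4* probes, the first (NM_009030, 128767354 to 128767413) had 7.31, 7.62 and 8.13 in WT and 7.31, 8.51 and 7.21 in *p85α−/−*, with overlapping groups and a ratio of −0.0079 ± 0.90 (SD, n = 3). The last (NM_009030, 128752026 to 128752085) had 6.85, 6.90 and 7.79 in WT, well above background on 1 array, and 9.21, 6.91 and 6.84 in *p85α−/−*. Here *p85α−/−* replicate 1 alone was high. On array 1, the 4 probes gave log2 ratios of −2.02, −2.91, −0.00052 and 2.35, so the direction for *Rbbp4* in this pair of cultures depended on the probe.

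B-Myb, encoded by *Mybl2*, is a transcription factor made in S phase that joins MuvB to switch on mitotic genes. Its only probe (NM_008652, chromosome 2, 162824323 to 162824380) had levels of 12.06, 8.24 and 10.87 in WT and 7.76, 10.71 and 10.73 in *p85α−/−*. On array 1 WT was high and *p85α−/−* low, on array 2 the reverse held, and on array 3 the cultures were nearly level. The log2 ratios were −4.30, 2.47 and −0.14, the widest spread among the 14 probes. Their mean of −0.66 ± 3.41 (SD, n = 3) had a 95% interval of −4.83 to 3.52, and limma gave an adjusted p of 0.959. Before normalization, the spot brightness was 1427, 103 and 1138 in WT and 210, 3140 and 3248 in *p85α−/−*, and every spot was well above background.

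E2F4 is the E2F that carries pocket proteins to DREAM promoters. At its only probe (NM_148952, chromosome 8, 103903895 to 103903954) WT levels were 6.70, 6.99 and 6.67 and *p85α−/−* levels 7.97, 6.65 and 9.34. *p85α−/−* replicates 1 and 3 were above every WT culture, and *p85α−/−* replicate 2 was below every one. WT was well above background on 1 of 3 arrays. The log2 ratio was 1.199 ± 1.501 (SD, n = 3), its adjusted p from limma was 0.908, and without replicate 2 it was 1.97, past 1.5-fold and an unadjusted p of 0.0451. Without replicate 3 it was 0.47 with a limma p of 0.486. With processed intensities it was 2.76 and with the scanner's log ratio 3.25, and neither passed. The cultures with high *E2f4* were those with high neutrophil markers. That part was not tested.

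RB, encoded by *Rb1*, is the pocket protein that binds the activating E2Fs and does not belong to DREAM. Its brighter probe (NM_009029, chromosome 14, 67877318 to 67877377) is spotted 10 times on each array, which gives the noise between spots of 1 labeled sample, without that of amplification and labeling. Over these spots the SD of the log2 ratio within an array was 0.09, 0.16 and 0.13. The levels were 9.47, 8.19 and 9.46 in WT and 8.86, 9.60 and 10.73 in *p85α−/−*. WT replicate 2 was the lowest and *p85α−/−* replicate 3 the highest culture, and the groups overlapped. The ratios of −0.61, 1.41 and 1.27 had a mean of 0.69 ± 1.13 (SD, n = 3). The spread between arrays holds differences between mice, amplification and labeling, which were not separated. Array 1 had the opposite sign to the others, and without replicate 1 the ratio was 1.34, past both criteria with an unadjusted p of 0.0379 from limma. Without replicate 2 or 3 it was 0.33 or 0.40, and neither passed. The second *Rb1* probe (NM_009029, 67944271 to 67944330) had 6.71, 7.00 and 7.04 in WT and 6.95, 7.09 and 7.15 in *p85α−/−*. It was the most even of the 14, with a ratio of 0.15 ± 0.08 (SD, n = 3), but WT was well above background on 1 array only.

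p107, encoded by *Rbl1*, is the pocket protein of cycling cells. Its probe (NM_011249, chromosome 2, 156887297 to 156887356) had 6.79, 8.12 and 7.00 in WT and 6.92, 6.78 and 6.96 in *p85α−/−*. Only WT replicate 2 was raised over the others, and the mean ratio was −0.42 ± 0.80 (SD, n = 3).

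p130, encoded by *Rbl2*, is the pocket protein of resting cells. Its probes (NM_011250, chromosome 8) lie 758 bases apart, from 89715032 to 89715091 and from 89715790 to 89715849. At the first, WT levels were 9.93, 7.64 and 7.96 and *p85α−/−* levels 7.45, 8.38 and 11.07. At the second, WT levels were 8.60, 12.69 and 7.07 and *p85α−/−* levels 6.97, 7.33 and 6.90. The first probe was highest in *p85α−/−* replicate 3 and the second in WT replicate 2, cultures in which the other probe was low. The ratio was 0.46 ± 2.81 (SD, n = 3) at the first, with ratios of −2.48, 0.74 and 3.11. At the second it was −2.39 ± 2.67, with −1.63, −5.36 and −0.18, an unadjusted p of 0.112 from limma and 0.908 once adjusted. The 2 probes of this gene differed by 0.86, 6.09 and 3.29 on arrays 1, 2 and 3.

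**Figure D2:**
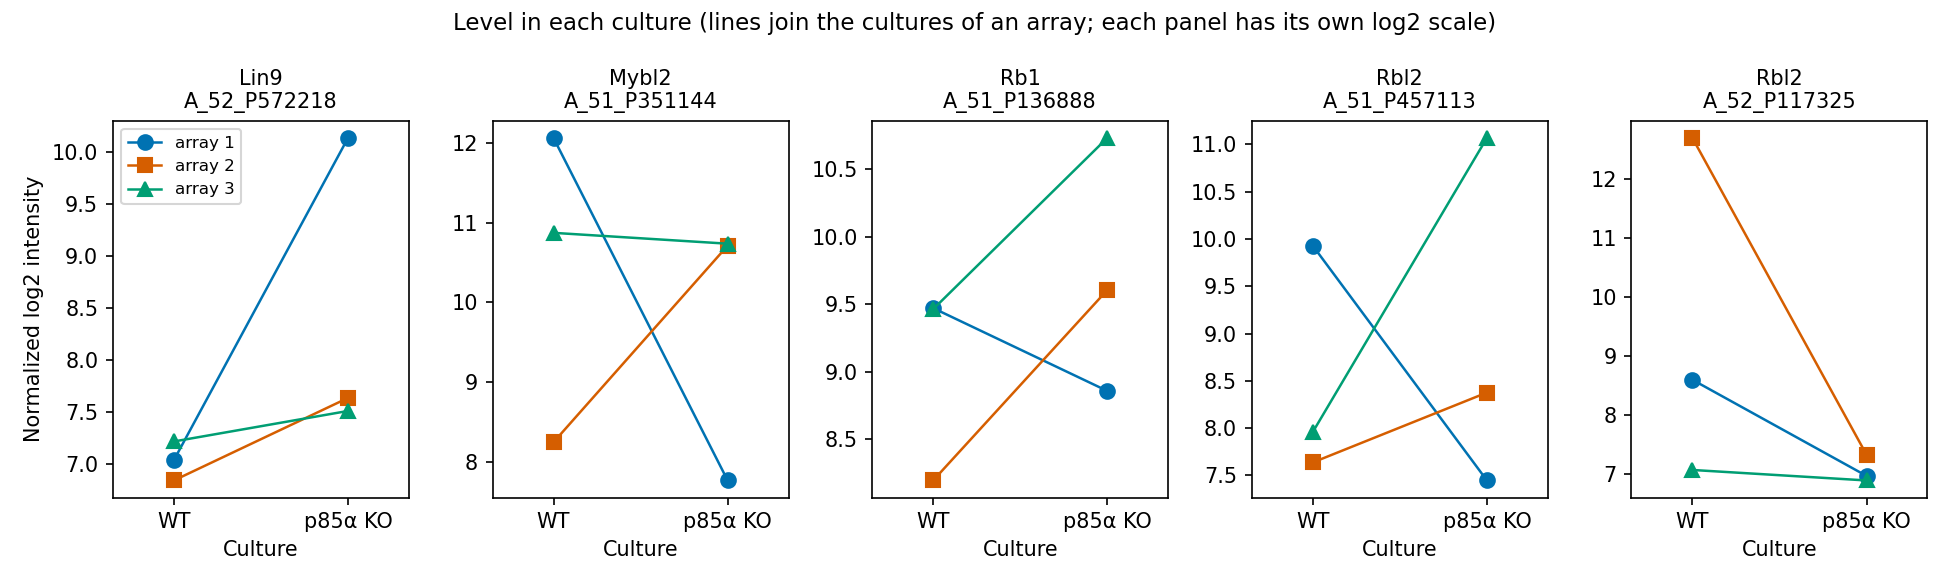
Normalized log2 intensity on the y axis in WT and *p85α−/−* cultures on the x axis for the brightest probes of *Lin9*, *Mybl2* and *Rb1* and both probes of *Rbl2*, with a line for each array and a scale of its own in each panel. *Lin9* is high only in *p85α−/−* replicate 1 (10.13), and the lines of *Mybl2* cross.

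Probes of the same gene were then compared, because a change in a transcript should move all probes that read it. For the 4 genes with several probes by name, the sign of the log2 ratio was the same in 16 of 33 comparisons (11 pairs of probes on 3 arrays), or 48.5%. Over all 8843 gene names with several probes it was the same in 52.8% of 58593. Most of the 11 pairs are of 1 gene, *Rbbp4*. The 33 include the pairs of the *Rbbp4* probe AK140625, whose strand was not tested. In these pairs the sign was the same on 2, 1 and 0 of 3 arrays. Dim probes and ratios near 0 were counted in both shares. Counted so, the sign at 1 probe of a gene told little about the sign at another across the array. The MuvB and pocket protein genes were near that background.

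As a description, probes were ranked by their Pearson r with the brightest *Lin9* probe over the 6 channels, among 28402 probes of other genes with at least 5 channels well above background. The closest were AK046735 (r = 0.999), 6030452D12Rik (0.992), AK031433 (0.990), *Mrps35* (0.990) and X99384 (0.990). In all, 784 of the 28402 probes had an r above 0.9. The *Lin9* pattern they follow is mainly that of 1 high culture, *p85α−/−* replicate 1. An r takes no account of the size of a change. The mean log2 ratios of the 5 closest were 0.18, 0.71, 1.26, 1.73 and 0.26, in the order given.

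Partners and regulators of these complexes, and relatives of some of them, were taken from lists, at the brightest probe of each gene. Among 9 E2F and DP genes, 7 lay above 0, their median log2 ratio was 0.35, and 1 passed both criteria. It was *E2f1*, an activating E2F that RB restrains, with levels of 12.76, 9.68 and 9.36 in WT and 13.10, 11.12 and 10.93 in *p85α−/−*. WT replicate 1 and *p85α−/−* replicate 1 were the highest, and the groups overlapped. Its ratio was 1.12 ± 0.67 (SD, n = 3), limma's adjusted p was 0.908, and it no longer passed under 9 of 13 alternatives. The other *E2f1* probe, spotted 10 times, had 0.78 ± 1.80, with −1.16 on array 2. Without replicate 2 the median of the list was 0.09 and 0 genes passed.

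Among 6 genes listed as partners and regulators of MuvB or their relatives, 3 were above 0 and 3 below, with a median of −0.21. At the brightest probe 0 passed. The median was −0.94, with 1 gene past both criteria as lower, without replicate 2, and 0.47, with 4 of 6 above 0, under median centring (the ratios of an array shifted to a median of 0, with no quantile normalization), so its sign depends on the scaling. Those with 1 sign on every array were *Foxm1*, which follows B-Myb at MuvB, *Myb*, its relative in blood progenitors, and *Mybl1*. *Foxm1* had 8.01, 7.74 and 7.28 in WT and 11.75, 7.83 and 7.61 in *p85α−/−*, and *Myb* had 9.02, 8.69 and 8.64 in WT and 12.02, 9.43 and 8.82 in *p85α−/−*. Both were high in the culture in which the brightest *Lin9* probe was high, *p85α−/−* replicate 1. Their ratios were 1.39 ± 2.04 and 1.30 ± 1.49 (SD, n = 3), and without replicate 1 they were 0.21 and 0.46. The other *Myb* probes had mean ratios of 0.53, −0.65 and −0.64, so the direction of *Myb* depended on the probe. *Mybl1* had 8.78, 8.68 and 8.16 in WT and 7.83, 8.10 and 7.96 in *p85α−/−*, a ratio of −0.58 ± 0.37, with all *p85α−/−* cultures below all WT cultures, and its other probe had −0.17. Under median centring the *Mybl1* ratio was −0.12. *Dyrk1b*, a kinase related to DYRK1A, passed at a probe that is not its brightest (NM_001037957), where WT levels were 9.49, 10.38 and 10.14 and *p85α−/−* levels 9.07, 9.41 and 8.67. All *p85α−/−* cultures were below all WT cultures here, while the other *Dyrk1b* probes, with means of −0.73 and −0.53, were higher in *p85α−/−* on array 2. The ratio was −0.95 ± 0.52, limma's adjusted p was 0.908, and the probe did not pass under 10 of 12 alternatives. Median centring gave it a ratio of −0.33.

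Among 8 cyclins and kinases that phosphorylate pocket proteins, 4 were above 0 with a median of 0.11, and 2 passed, both higher. *Ccnd2*, the D-type cyclin that mitogens induce, had 12.59, 8.60 and 12.57 in WT and 14.72, 13.25 and 14.64 in *p85α−/−*. All *p85α−/−* cultures were above all WT cultures, by 2.95 ± 1.47 (SD, n = 3) on average, and limma's adjusted p was 0.908. *Cdk2*, the partner of cyclin E, had 7.28, 6.51 and 7.07 in WT, well above background on 2 of 3 arrays, and 9.71, 6.86 and 9.32 in *p85α−/−*. *p85α−/−* replicate 2 overlapped with WT, and the ratio was 1.68 ± 1.15 with an adjusted p of 0.908. *Cdk2* no longer passed under 7 of 13 alternatives and *Ccnd2* under 3 of 13. The median of these 8 genes was −0.13, with 3 passed, without replicate 2, and 1.12, with 1 passed, under median centring. Another probe of each gene gave a smaller ratio, 0.53 and 1.26 at the other *Ccnd2* probes and −0.08 at that of *Cdk2*.

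Target genes showed no shared direction. Of 17 genes of the G1/S transition, 8 were above 0, with a median of −0.04, and 2 passed, both higher. *Mcm2*, a subunit of the replicative helicase, had 9.49, 7.12 and 9.29 in WT and 12.11, 10.09 and 11.74 in *p85α−/−*. Its groups did not overlap, and its ratios of 2.61, 2.97 and 2.44 were the most even of the genes named here that passed, 2.68 ± 0.27 (SD, n = 3), with limma p values of 0.000664 before and 0.763 after adjustment. In WT, 2 of 3 channels of this probe were well above background. *Pola1*, which encodes the catalytic subunit of DNA polymerase α, had 7.26, 7.70 and 7.30 in WT and 11.004, 8.27 and 9.75 in *p85α−/−*, without overlap, and a ratio of 2.25 ± 1.60. Under 3 of 12 alternatives *Pola1* no longer passed, and under 1 of 12 *Mcm2* did not. For *Mcm2* that 1 is the deposited table, most of whose values for replicates 2 and 3 are not the scanner's ratio of the probe, and this table is also among the losses of *Pola1*, *Ccnd2*, *Cdk2* and *E2f1*. Of 23 genes of G2 and mitosis, 10 were above 0, with a median of −0.05, and 1 passed, lower. It was *Kif20a*, a kinesin of the mitotic spindle, with 10.16, 11.49 and 10.57 in WT and 9.31, 10.06 and 10.11 in *p85α−/−*. Its groups did not overlap, but the ratio of −0.91 ± 0.49 passed under 1 of 13 alternatives only, and its other probe had −0.40. With median centring the *Kif20a* ratio was −0.18. The median of all tested probes was −0.05. Under median centring, 13 of the 17 and 17 of the 23 genes were above 0, so neither list has a direction that both scalings share. Without replicate 2, 13 of the 23 genes were above 0 with a median of 0.21, and 3 passed as higher and 1 as lower. Of the 17 G1/S genes, 4 passed under median centring, all higher, with a median of 0.52. Without replicate 2, 2 of the 17 passed as higher and 1 as lower, with a median of −0.13.

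Promoters of these genes were read for the sequences at which the complexes bind, 300 bases per promoter (RefSeq, GRCm38.p6), most of them before the gene's start. Letters of different kinds were searched on both strands, the CHR read by LIN54 (TTTGAA or TTCGAA) and E2F sites (TTTGGCGC, TTTCGCGC, TTTCCCGC or TTTGCCGC). No word of one kind contains a word of the other. Of 27025 genes with a promoter, 21.7% held CHR letters and 2.60% E2F letters. Among 18 genes of G2 and mitosis with a promoter, 14 (77.8%) held CHR letters and 1 (5.56%) E2F letters. Among 15 G1/S genes, 2 (13.3%) held CHR letters and 9 (60.0%) E2F letters. The lists were chosen by function, not by these letters. Of the 14 G2 and mitosis genes with CHR letters, 8 had a mean log2 ratio above 0 and the median was 0.50, against 1 of 4 and −0.12 without them. For the G1/S genes it was 4 of 9 and −0.31 with E2F letters, against 3 of 6 and 0.20 without. These differences were not tested.

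Of the 10 genes, 7 had a promoter in the table (all but *Lin9*, *E2f4* and *Rb1*). CHR letters stood in those of *Lin37*, *Lin54* and *Rbl2*, and E2F letters in those of *Lin52* and *Rbl1*. These are 42.9% and 28.6% of the 7, against 21.7% and 2.60% of all genes, a difference that was not tested. The letters are printed because they show subunits whose own promoters hold such letters, 30 bases each, 5′ to 3′ on the strand of the gene, with the matching letters in capitals. In *Rbl2* the match is on the opposite strand.
*Lin37* (chr7:30559826-30559855): gagcctcggaagTTTGAAtcacaaccccca
*Lin54* (chr5:100498718-100498747): cccctgagtgcgTTTGAAggttggcggggc
*Rbl2* (chr8:91069844-91069873): ggtctttttctcTTCAAAcgagccttctga
*Lin52* (chr12:84451470-84451499): cggatcctcgcTTTCCCGCcgacggttggt
*Rbl1* (chr2:157204534-157204563): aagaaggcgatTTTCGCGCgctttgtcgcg

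For comparison, the same letters in target genes of the lists are shown for *Cdk1*, *Ccnb2* and *Mki67* (CHR) and for *Mcm6*, *Orc1* and *Pola1* (E2F). In *Orc1* and *Pola1* they are on the opposite strand.
*Cdk1* (chr10:69352910-69352939): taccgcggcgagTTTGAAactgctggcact
*Ccnb2* (chr9:70421533-70421562): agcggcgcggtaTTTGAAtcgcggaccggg
*Mki67* (chr7:135716460-135716489): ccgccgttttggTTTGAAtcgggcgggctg
*Mcm6* (chr1:128359734-128359763): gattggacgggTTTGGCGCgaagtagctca
*Orc1* (chr4:108579416-108579445): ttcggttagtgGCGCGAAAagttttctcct
*Pola1* (chrX:93632275-93632304): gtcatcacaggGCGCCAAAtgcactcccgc
A match is a run of letters, not a bound site, and the arrays did not measure binding. Among the members, the CHR letters printed begin 197 (*Lin37*), 162 (*Lin54*) and 201 bases (*Rbl2*) before the gene's start, and the E2F letters 27 (*Lin52*) and 18 bases (*Rbl1*) before it. In the target genes they begin 15 (*Cdk1*), 98 (*Mki67*), 47 (*Mcm6*), 27 (*Orc1*) and 138 bases (*Pola1*) before the start, and 5 bases after it in *Ccnb2*. *Lin54* also holds CHR letters 30 and 41 bases after a start, and *Cdk1*, *Ccnb2* and *Mki67* hold further ones 71, 167 and 116 bases before it. Further E2F letters begin 110 and 106 bases before the start of *Mcm6* and 131 before that of *Cdk1*, so the windows shown give no order of distances.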

How the data were processed

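Values come from the scanner output deposited by the authors, 1 file for each array, written by Feature Extraction 9.5.1.1 (Agilent). Per the file headers it holds mean spot intensity and median local background in each channel, without normalization, processed intensities, and a log10 ratio of red over green. The deposited table gives log10 ratios, 1 for each probe on each array. It equals the scanner's ratio of that probe for 40929, 190 and 226 of 40929 probes on replicates 1, 2 and 3 (tolerance 1.5e-05) and was used only as an alternative.

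Mean intensities were background-corrected (normexp, offset 50) and quantile normalized over the 6 channels as log2 values (limma 3.58.1, R 4.3.3). Controls and outlier spots were dropped and the spots of each probe averaged. Log2 ratios of 41157 probes were tested with an intercept-only limma fit (eBayes), adjusted by Benjamini-Hochberg over all of them, and read at 1.5-fold with an unadjusted p under 0.05. Cultures that shared an array were paired by using its ratio. The brightest probe has the highest mean level over the 6 channels. A systematic name was found in the RefSeq table of GRCm38.p6 for 22943 tested probes (55.7%). No spot was saturated (0 in every channel).

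Named beside the 10 genes are probes of the lists past both criteria, otherwise up to 3 genes per list with 1 sign on every array and the largest mean ratio, and the 5 probes most like *Lin9*. *Dyrk1b* and the passing markers were named after their values were seen. The promoter windows of target genes were picked as examples after the matches were seen, 1 match per gene. The members and lists were chosen with earlier results of these data known. Alternatives were loess with Aquantile, median centring, no background subtraction, processed intensities, the scanner's log ratio, the deposited table, dim probes left out, outlier spots kept, the methods' t-test, no pairing by array, each replicate left out, and the mean over a gene's probes. One marker list is not reported here. Quantitative PCR and cell assays were not analysed here.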

Additional observations from a re-analysis of the deposited data

How the results depend on the processing

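Across 14 alternatives, limma or the methods' t-test, 0 probes of the array reached an adjusted p under 0.05. Probes of any gene past both criteria (1.5-fold, unadjusted p under 0.05) numbered 1829 here, 1125 with the unpaired and 819 with the paired t-test of the methods, 1557 to 3165 with 1 replicate left out (3165 without replicate 2), and 1809 by limma with no replicate block, which changed no call of a member. Median centring gave 2698, 91.4% of them higher against 62.6%, and shifted the median over the array to 0.09 from −0.05. Without replicate 2, 47.5% of the 3165 were higher, so the balance of directions turned. Of the 14 member probes 1 passed under median centring (*Rb1*), 1 with processed intensities (*Lin9*, 2.74), 2 in the deposited table (*Lin9*, 3.68 at its brightest probe), and 1 without each replicate in turn (*Rb1*, *E2f4* and *Rbbp4*). Over all probes, 1913 of 41157 passed with processed intensities and 1262 of 41174 in the deposited table. Without replicates 1, 2 and 3, 1557, 3165 and 1748 of all probes passed. Between 7 and 11 of the 14 member probes were above 0. For *Lin9*, the direction of the brightest probe held under 13 of 13 alternatives, from 0.54 to 3.68, but the probe of the RefSeq transcript had −0.25. These 13 include the mean over the gene's probes (0.57) and the deposited table (3.68), which need not give the brightest probe's own ratio. The sign turned with loess for *Lin37* (0.010) and *Lin54* (−0.0012), with median centring for *Lin37* (0.55) and *Mybl2* (0.27), in the deposited table for *Lin52* (−0.12), *Rbl2* (−1.20), *Mybl1* (0.052) and *Kif20a* (1.501), and for *Rbl2* (−0.97) when its probes were averaged. With 1 replicate left out, *Lin52* ran from −0.24 to 0.69, *Lin54* from −0.072 to 0.26, *Rbbp4* (at AK140625, strand not tested) from −1.73 to 1.26, *Mybl2* from −2.22 to 1.17, *Rbl1* from −0.69 to 0.047, *E2f4* from 0.47 to 1.97, *Rb1* from 0.33 to 1.34, *Foxm1* from 0.21 to 2.03, *Myb* from 0.46 to 1.87 and *Rbl2* from −0.87 to 1.92. What causes these turns was not tested. In the deposited table, most values of replicates 2 and 3 differ from the scanner's ratio of that probe, so a mean it gives for a gene may rest on other probes. Counting the older gene names was chosen after seeing the data. Signal over background limits what the dim probes of *Lin9*, *E2f4*, *Lin52* and *Lin54* can show.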
